A study of Mus musculus with 16 samples.

Results

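The genes described here are 31 genes of the cell cycle, of neural progenitors and of immature neurons, measured in the hypothalamus of mice. They come from a list of gene names, and a probe belonged to the set when the array's gene name was on the list. That rule uses no measured value, but the list was drawn up with earlier results of these data known. Of the 55681 non-control probes on the array, 47 carried one of these names, and each of the 31 genes had at least 1. The set holds 2 G1 cyclins, 6 genes of S phase, 11 genes of G2 and mitosis, 3 progenitor genes and 9 genes of immature neurons.

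A dividing cell passes through G1, copies its DNA in S phase and then goes through G2 into mitosis, and each step has its own set of transcripts. D-type cyclins act in G1, replication factors such as the MCM helicase and the clamp Pcna act in S phase, and mitotic cyclins, kinases and checkpoint proteins act in G2 and mitosis. In the adult brain most cells are neurons and glia that no longer divide. The hypothalamus keeps some dividing cells, among them oligodendrocyte precursors and tanycytes, which are progenitor-like glia lining the third ventricle. Dividing progenitors are sensitive to ionising radiation, whereas neurons that have left the cycle are less so. This is why cell cycle genes and immature neuron genes were set side by side.

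There were 8 control mice and 8 mice that the submitters called treated KO chimeras, 1 array per animal. The KO chimeras were C57BL/6J mice given 950 Rad of irradiation, a dose that destroys an animal's own blood-forming marrow. Whole bone marrow cells of the strain Adrb1tm1BkkAdrb2tm1Bkk/J, which lacks the beta-1 and beta-2 adrenergic receptors, were then injected once by the retro-orbital route. The labels give a ratio of 1:4, knockout strain to C57BL/6J, which could refer to animals or to mixed marrow cells. Tissue was collected after 2 to 3 months of recovery. This treatment text and an irradiated C57BL/6J receiver strain appear in the labels of all 16 mice, while a marrow donor strain is given only for the KO chimeras. It is therefore not settled if controls had irradiation and other marrow, or neither, and the comparison cannot be read as irradiated against unirradiated mice. The labels give no age and no sex, and the brain cells of the recipients carry the receptor genes intact. The study's title asks what the loss of sympathetic drive does to hypothalamus, bone and gut.

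Values are log2 signals with the array's own 75th percentile set to 0, and every difference is KO chimera minus control, so a difference of 1 would be a doubling. Between 27276 and 43248 of the 59305 non-control spots of an array were well above background. The lowest number belonged to KO chimera replicate 1, and the other 15 arrays had at least 34935. This array is the lowest KO chimera for 7 and the highest for 4 of the members tested, so differences are also given without it. A gene was tested if the scanner called one of its probes well above background on 8 or more of the 16 arrays. In limma with Benjamini-Hochberg adjustment over all 24363 genes tested, 933 genes passed an adjusted p of 0.05, which is 3.83%. Of these, 250 were higher and 683 lower, and the median difference over all genes tested was −0.0003. That split moved with the scaling. It was 27 higher and 244 lower with normexp background correction, 178 higher and 3990 lower with the array median in place of the 75th percentile, and 455 higher and 266 lower with the percentile taken over probes detected on all arrays.

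Promoter sequences are shown first because the timing of cell cycle genes is known to rest on a few short motifs. CCAAT boxes are bound by NF-Y, the cell cycle homology region (CHR) by the MuvB complexes that govern G2 and mitosis genes, and E2F sites by the E2F factors that govern S phase genes. RefSeq promoters (GRCm38.p6, 250 bases before to 50 after the start of the gene) matched 24 of the 31 genes, with 25 promoters. Capitals mark 3 kinds of motif, searched on both strands: the CCAAT box (CCAAT), the CHR (TTTGAA) and E2F sites (TTCCCGC). For E2F the variant spellings TTGGCGC as well as TTCGCGC, together with TTGCCGC, were counted too. An E2F match can overlap a CCAAT box, as in Ccnb1. The lines below give the 150 bases just before the start, read 5′ to 3′ on the strand of the gene, for 4 genes of G2 and mitosis, 1 of S phase and 1 of immature neurons.
Mki67: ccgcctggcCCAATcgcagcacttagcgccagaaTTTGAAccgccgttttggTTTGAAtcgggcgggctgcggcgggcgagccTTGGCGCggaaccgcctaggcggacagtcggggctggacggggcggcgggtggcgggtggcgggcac
Top2a: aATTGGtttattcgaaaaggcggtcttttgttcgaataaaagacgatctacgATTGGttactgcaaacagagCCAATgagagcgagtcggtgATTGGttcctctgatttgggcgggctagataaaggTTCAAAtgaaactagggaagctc
Ccnb2: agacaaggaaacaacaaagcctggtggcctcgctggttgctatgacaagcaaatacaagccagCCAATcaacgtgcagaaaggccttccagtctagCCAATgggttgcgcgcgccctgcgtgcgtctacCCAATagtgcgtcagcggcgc
Cdk1: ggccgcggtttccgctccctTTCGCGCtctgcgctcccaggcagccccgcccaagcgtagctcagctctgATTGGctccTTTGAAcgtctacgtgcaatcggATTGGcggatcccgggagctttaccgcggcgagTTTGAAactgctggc
Mcm3: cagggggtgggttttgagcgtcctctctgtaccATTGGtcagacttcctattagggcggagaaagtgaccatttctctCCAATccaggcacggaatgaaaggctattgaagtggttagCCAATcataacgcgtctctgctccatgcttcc
Neurod1: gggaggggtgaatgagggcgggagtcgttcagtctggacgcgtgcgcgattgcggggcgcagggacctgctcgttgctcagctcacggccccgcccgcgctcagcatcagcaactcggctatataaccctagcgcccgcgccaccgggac
These lie at chr7:135716380-135716529, minus strand (Mki67), chr11:99024190-99024339, minus strand (Top2a), chr9:70421555-70421704, minus strand (Ccnb2), chr10:69352913-69353062, minus strand (Cdk1), chr1:20820313-20820462, minus strand (Mcm3) and chr2:79456637-79456786, minus strand (Neurod1). Over the full window, a CCAAT box was found in 8 of 9 G2 and mitosis promoters, 5 of 6 S phase promoters, 2 of 3 progenitor promoters and 5 of 7 immature neuron promoters, against 37.4% of all 32851 promoters. CHR letters were found in 6 of 9 G2 and mitosis promoters but 1 of 6 of S phase, 1 of 3 of progenitors and 1 of 7 of immature neurons, against 17.9% of all promoters. E2F letters were found in 3 of 6 S phase, 3 of 9 G2 and mitosis, 1 of 3 progenitor and 0 of 7 immature neuron promoters, against 9.57% of all. In the lines shown, Mki67 and Cdk1 have 2 CHR copies, while the Neurod1 line has none of the motifs. A match describes letters and is not a bound site.

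None of the members passed the test. Of the 31 genes, 27 reached the filter (15 of 19 cell cycle genes, 3 of 3 progenitor genes and 9 of 9 immature neuron genes), and 0 of the 27 had an adjusted p under 0.05 in limma, where 3.83% of all genes did. At an unadjusted p under 0.05 there were 4 of 27 (Mki67, Pcna, Sox11 and Cd24a), where 20.7% of all genes tested were under that value. At an adjusted p under 0.1 there was 1 of 27 (Mki67), against 8.37% of all genes. In all 27 the groups overlapped, as they did in all but 0.956% of the genes tested. The values of the control and KO chimera mice are shown animal by animal in the plot of member signals.

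**Figure D1:**
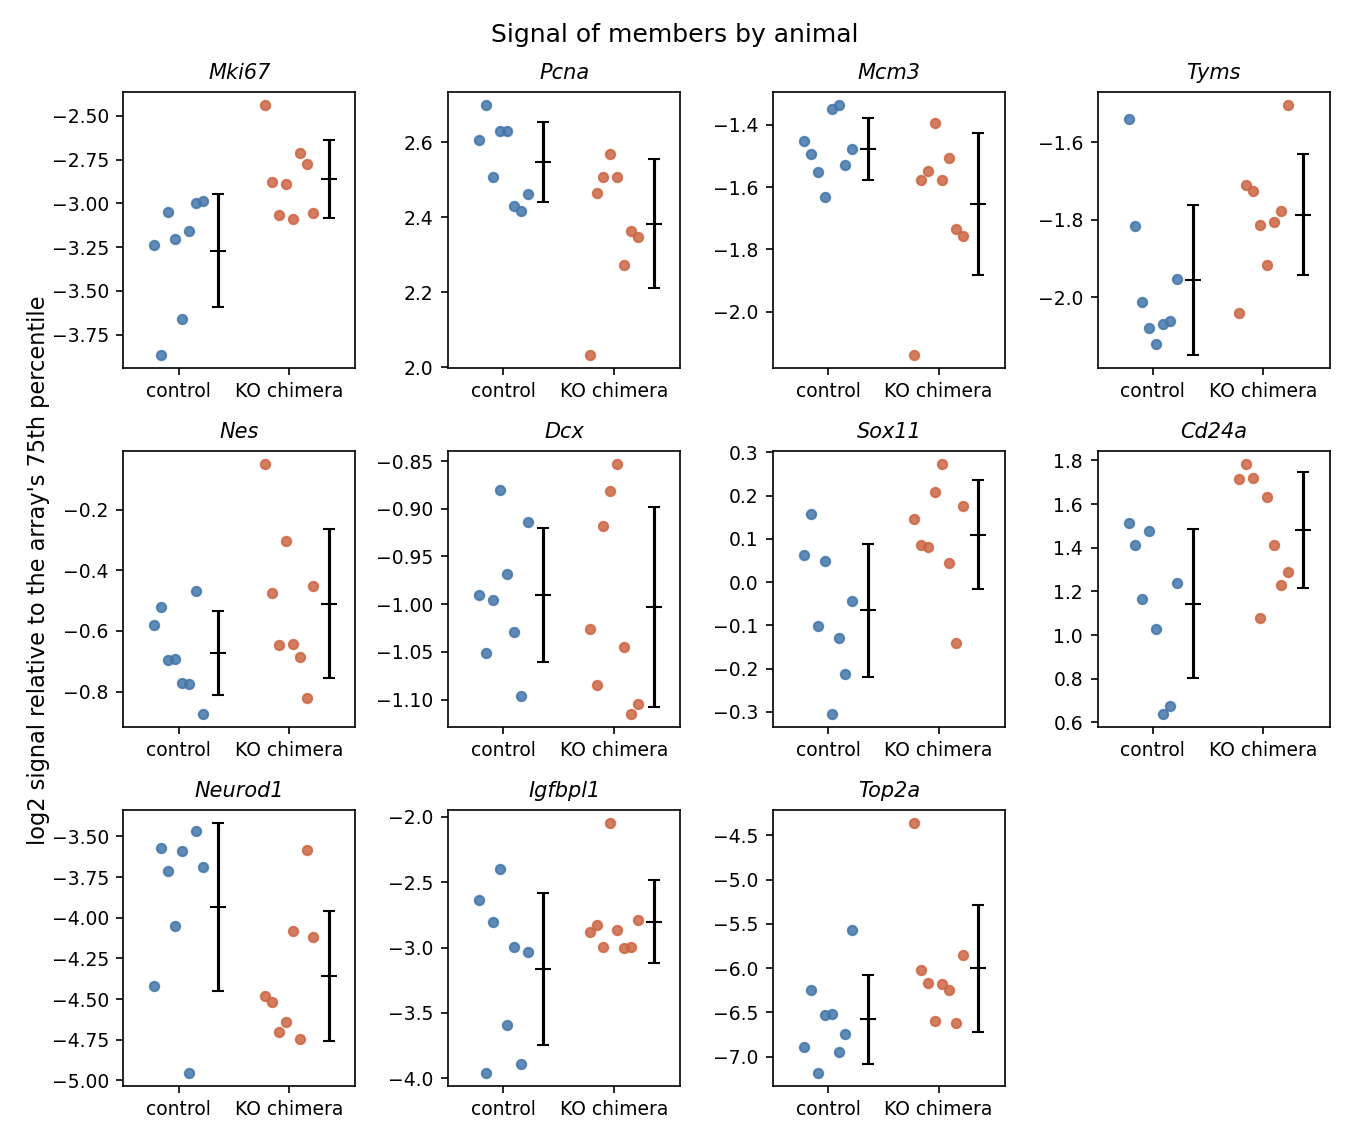
Log2 signal above or below the 75th percentile of its array (vertical axis, a separate scale for each gene) for 11 members in 8 control and 8 KO chimera mice; each point is an animal, and the bar beside each group is the mean with its SD. Every pair of groups overlaps. Mki67 has 5 KO chimeras above the highest control, and Top2a was not well above background on any array.

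The 95% interval of the difference excluded 0 for those 4 genes and included it for the rest. The plot of differences by class sets them side by side. The 7 G2 and mitosis genes tested all had positive differences, with a median of 0.19, whereas 2 of the 6 S phase genes did, with a median of −0.04. All 3 progenitor genes were positive (median 0.11), as were 6 of the 9 immature neuron genes (median 0.08). Over all genes tested, 49.9% had a positive difference, but among those at levels from −4 to −2 it was 66.8%. Except for Birc5, the G2 and mitosis genes tested had mean levels below −2. Among 18 other G2 and mitosis genes tested, outside the set, 10 were positive.

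**Figure D2:**
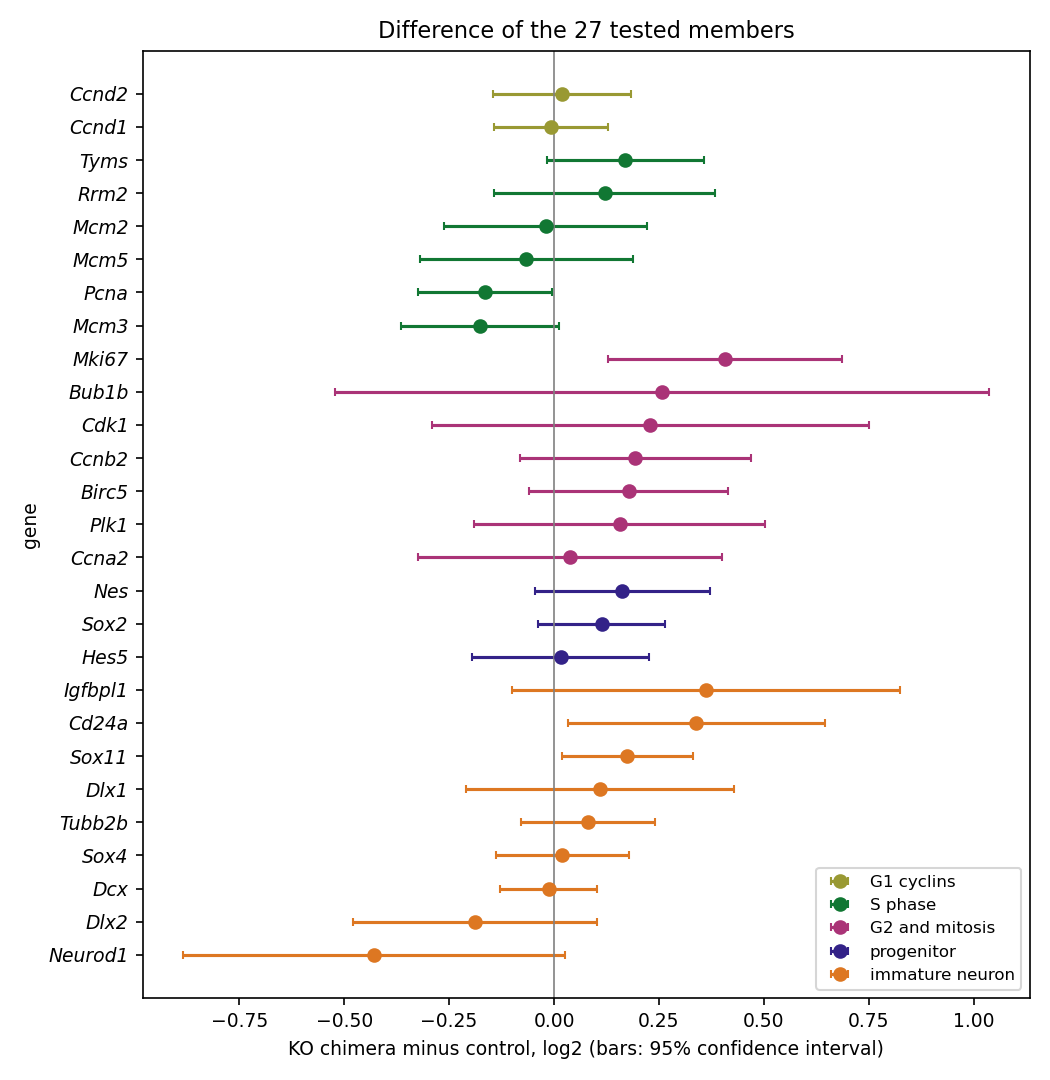
Difference between KO chimera and control mice on the log2 scale (horizontal axis) for the 27 members tested, grouped and coloured by class; points are estimates from limma and bars are 95% confidence intervals. Mki67, Cd24a and Sox11 lie above 0 with their whole interval and Pcna lies below it; the widest interval is that of Bub1b.

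The differences of both G1 cyclins lay near 0. Ccnd1 and Ccnd2 encode D-type cyclins, which activate Cdk4 and Cdk6 in G1 and are also made by some cells that do not divide. Ccnd1 was 1.48 ± 0.15 in control and 1.47 ± 0.07 in KO chimeras (SD, n = 8 each). Its difference was −0.01 with a 95% interval of −0.14 to 0.13. Ccnd2 differed by 0.02, with an interval of −0.15 to 0.18.

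Among the S phase genes the differences went both ways. Pcna, the sliding clamp of DNA polymerase, was lower in KO chimeras by 0.16, and Mcm3, a subunit of the replicative helicase, by 0.18, neither past the threshold. Tyms, which makes thymidylate, and Rrm2, a subunit of ribonucleotide reductase, were higher by 0.17 and 0.12. The helicase subunits Mcm2 and Mcm5 had differences of −0.02 and −0.07, with intervals of −0.26 to 0.22 and −0.32 to 0.19.

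Pcna (probe at mm9 chr2:132075022-132075054) ranged in control mice from 2.42 through a median of 2.56 to 2.70, and in KO chimeras from 2.03 through 2.41 to 2.57. All but 1 of the KO chimeras lay below the control median, and none lay above the highest control. The means were 2.55 ± 0.11 and 2.38 ± 0.17, and the difference was −0.16 ± 0.08 (SE; limma adjusted p = 0.225, exact permutation p = 0.030, two-sided). Without KO chimera replicate 1, the lowest animal, it was −0.11. It was −0.30 within the first scan day and −0.03 within the second.

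Mcm3 (probe at mm9 chr1:20793136-20793195) ranged from −1.63 through −1.49 to −1.34 in control mice and from −2.14 through −1.58 to −1.39 in KO chimeras. A single KO chimera lay above the control median, and replicate 1 was the lowest. The means were −1.48 ± 0.10 and −1.65 ± 0.23, with a difference of −0.18 ± 0.09 (SE; limma adjusted p = 0.269), and −0.11 without that animal. A neighbouring Mcm3 probe, overlapping the first, gave −0.26. Pcna and Mcm3 were the only members to pass an adjusted p of 0.05 in any of 38 alternative settings. With the array median in place of the 75th percentile their differences were −0.29 and −0.30 (limma adjusted p = 0.0330 and 0.0454). That scaling moved the median of all genes to −0.13 and called 17.1% of them.

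Tyms (probe at mm9 chr5:30385578-30385637) ranged from −2.12 through −2.04 to −1.54 in control mice and from −2.04 through −1.79 to −1.50 in KO chimeras. All KO chimeras but 1 lay above the control median, and 4 controls lay below every KO chimera. The means were −1.96 ± 0.19 and −1.79 ± 0.16, and the difference was 0.17 ± 0.09 (SE; limma adjusted p = 0.289). It was positive on 3 of the 5 slides that held both groups.

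In G2 and mitosis, Mki67 had the largest difference of the tested members of its class. Mki67 encodes Ki-67, a chromosome surface protein present in dividing cells and lost in resting ones. At its probe (mm9 chr7:142881591-142881650) control mice ranged from −3.87 through a median of −3.18 to −2.99. KO chimeras ranged from −3.09 through −2.88 to −2.44. All 8 KO chimeras lay above the control median, 5 of them above every control, and 5 controls lay below every KO chimera, so the groups overlapped in part, and the highest KO chimera was replicate 1. The means were −3.27 ± 0.32 and −2.86 ± 0.22 (SD, n = 8 each). The difference was 0.41 ± 0.13 (SE), a ratio of 1.33 with a 95% interval of 1.09 to 1.61. It had an exact permutation p of 0.0047 (two-sided) taken alone, and its limma adjusted p was 0.0906, which misses the threshold.

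The Mki67 difference depended on the animals and on the treatment of background. Within the first scan day it was 0.64 and within the second 0.17. Within the 5 slides that held both groups it was 0.35, −0.02, 0.55, 0.88 and 0.57. Leaving out each animal in turn gave 0.32 to 0.45, and 0.35 without KO chimera replicate 1. It was 0.28 with quantile normalization, 0.27 in the log2 table the authors deposited, 0.20 with normexp background correction and 0.13 with normexp and without that animal. It was larger, at 0.47, with the percentile taken over probes detected on all arrays, and 0.44 with slide as a fixed block, neither past the threshold. The other Mki67 probe, well above background on 9 of 16 arrays (4 control, 5 KO chimera), gave a difference of 0.48 (adjusted p = 0.349 in limma with each probe tested).

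Dim probes as a whole were higher in KO chimeras. Sorted by mean signal, all probes had a median difference of 0.41 below −6, 0.27 from −6 to −4, 0.10 from −4 to −2, 0.05 from −2 to 0, −0.03 from 0 to 2 and −0.07 above 2. The 10805 probes that were well above background on no array had a median of 0.40, and 0.14 without KO chimera replicate 1. On that array their median signal was −4.81, against −7.44 to −6.23 on the other 15. Among the 5707 genes tested at levels from −4 to −2, where Mki67 lies, the median difference was 0.09, 66.8% were positive, and 8.45% had a difference at least as large as that of Mki67. The plot of difference against level places the members on this background, whose part in the differences of the dim members was not tested.

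**Figure D3:**
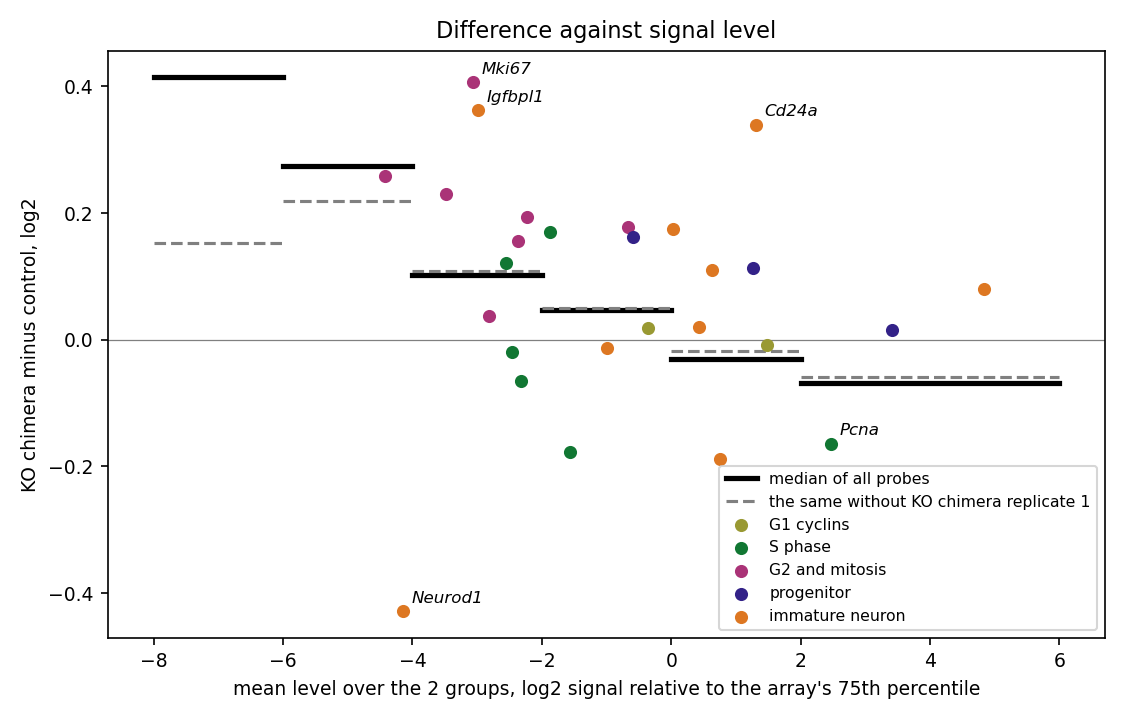
Difference between KO chimera and control mice (vertical axis, log2) against mean signal (horizontal axis, log2 above or below the 75th percentile) for the 27 members tested, coloured by class. Black bars give the median difference of all probes in each range of signal, from 0.41 below −6 to −0.07 above 2, and dashed bars the same without KO chimera replicate 1.

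The other G2 and mitosis genes had smaller or less precise differences. Cdk1, the kinase that starts mitosis, differed by 0.23 (95% interval −0.29 to 0.75), and Ccnb2, a cyclin that activates it, by 0.19 (−0.08 to 0.47). Birc5, which encodes survivin of the chromosomal passenger complex, differed by 0.18 (−0.06 to 0.42) and the mitotic kinase gene Plk1 by 0.16 (−0.19 to 0.50). Ccna2, a cyclin of S phase and G2, differed by 0.04 (−0.32 to 0.40). Bub1b, a spindle checkpoint gene, was well above background on 5 arrays of each group and differed by 0.26 (−0.52 to 1.04). These 6 genes had limma adjusted p-values from 0.384 to 0.922. Their intervals allow changes of at least 0.40 on the log2 scale upward.

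Top2a, Ccnb1, Bub1 and Aurkb were not tested. Top2a encodes the topoisomerase that untangles chromosomes and is a usual partner of Mki67 in dividing cells. Its probe (mm9 chr11:98855522-98855581) was well above background on no array. Its signal ranged from −7.19 through −6.64 to −5.56 in control mice and from −6.62 through −6.17 to −4.35 in KO chimeras, and the highest value came from replicate 1. The spindle checkpoint kinase gene Bub1 and the passenger kinase gene Aurkb were likewise above background on no array. Ccnb1, the other mitotic B-type cyclin, was above background on 2 control and 3 KO chimera arrays. No fold is given for these 4 genes. Across all 47 member probes, 10 lay under the filter, and the signal of all 10 was on average higher in KO chimeras. This is the direction of the dim probes of the array as a whole. Of all probes well above background on no array, 95.5% were higher in KO chimeras.

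Within the groups, animals with more Mki67 signal had less Pcna signal. After subtraction of the group means, Mki67 was set against each of the other 26 members tested, and only Pcna passed the correction. Pearson's r was −0.75 over 16 animals (permutation p = 0.00015, adjusted over the 26 relations 0.0039). Spearman's rho was −0.82 (permutation p = 0.0001, adjusted 0.0026). Without the 2 animals farthest from the median of Mki67, r was −0.79, and without KO chimera replicate 1 it was −0.69. It was −0.74 within the first scan day and −0.71 within the second, −0.82 among controls and −0.82 among KO chimeras. With quantile normalization r was −0.68, but with normexp background correction it was −0.44 (rho −0.21). Both values come from the same array. Against the array's number of spots above background, r was 0.0017 (rho 0.19) for Mki67 and 0.19 (rho −0.16) for Pcna. That number does not measure a shift of dim probes, such as that of Mki67, against bright ones, such as that of Pcna. The part of such a shift in the relation was not tested. The Pcna probe was well above background on all 16 arrays. The scatter of Mki67 against Pcna shows these animals.

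**Figure D4:**
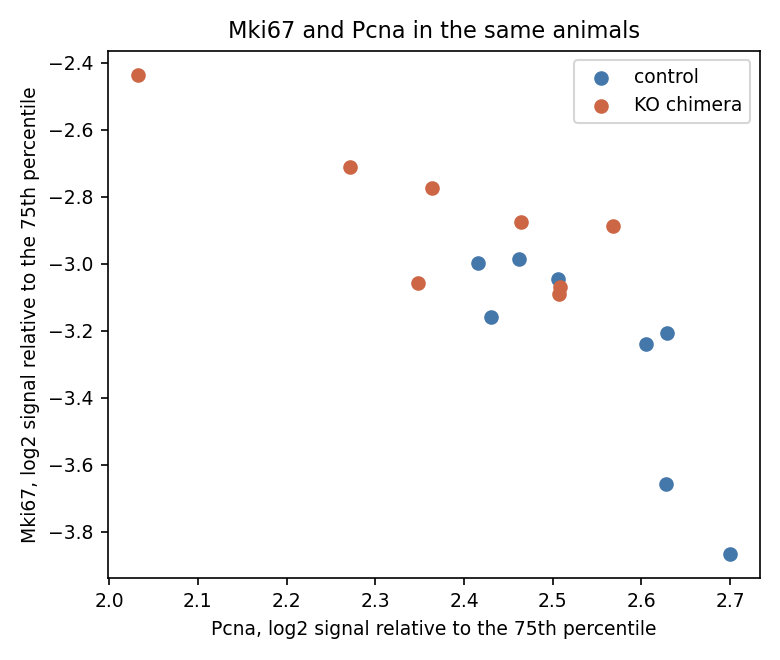
Mki67 signal (vertical axis) against Pcna signal (horizontal axis), both log2 above or below the 75th percentile of the array, in 8 control and 8 KO chimera mice; each point is an animal. The KO chimera with the lowest Pcna, 2.03, has the highest Mki67, −2.44, and the control with the highest Pcna, 2.70, has the lowest Mki67, −3.87.

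The progenitor genes differed by less than the test could call. Nes encodes nestin, an intermediate filament of neural stem cells and tanycytes. At its probe (mm9 chr3:87784303-87784362) control mice ranged from −0.87 through −0.69 to −0.47 and KO chimeras from −0.82 through −0.56 to −0.05. All KO chimeras but 1 lay above the control median, and replicate 1 was the highest. The means were −0.67 ± 0.14 and −0.51 ± 0.25, and the difference was 0.16 ± 0.10 (SE; limma adjusted p = 0.365), or 0.10 without that animal. Sox2, a transcription factor of stem cells that glia also express, differed by 0.11 (95% interval −0.04 to 0.26). Hes5, a target of Notch signalling, was 3.40 ± 0.19 and 3.41 ± 0.21, a difference of 0.02 (−0.20 to 0.23). Of 10 tanycyte markers, 6 had a positive difference (median 0.21; summed linear signal 3.98 to 7.54 in control and 4.31 to 8.17 in KO chimeras), and 1 was lower (Dio2, −0.76, limma adjusted p = 0.0262). Their part in the progenitor values was not tested.

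Immature neuron genes also passed in none of 9 cases. Dcx encodes doublecortin, a microtubule protein of migrating young neurons. At its brightest probe (mm9 chrX:140290854-140290913) control mice ranged from −1.10 through −0.99 to −0.88 and KO chimeras from −1.12 through −1.04 to −0.85. The ranges nearly coincide. The means were −0.991 ± 0.071 and −1.003 ± 0.105, and the difference was −0.01 ± 0.05 (SE; limma adjusted p = 0.919). The 95% interval of the ratio, 0.915 to 1.07, is the narrowest of the 27 members tested. A dimmer Dcx probe, above background on 14 arrays, differed by 0.34 (adjusted p = 0.168 in limma with each probe tested), so its probes disagree.

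Sox11 and Cd24a were the immature neuron genes with the smallest p. Sox11 is a transcription factor of young neurons. At mm9 chr12:28020087-28020146 control mice ranged from −0.30 through −0.07 to 0.16 and KO chimeras from −0.14 through 0.12 to 0.27. Of the KO chimeras, 7 lay above the control median and 3 above every control. The means were −0.06 ± 0.15 and 0.11 ± 0.13, and the difference was 0.17 ± 0.07 (SE; limma adjusted p = 0.189). A second Sox11 probe, also detected on all arrays, gave −0.02, and the mean of both gave 0.08.

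Cd24a encodes a surface protein of young neurons that ependymal cells carry as well. At mm9 chr10:43303706-43303765 control mice ranged from 0.64 through 1.20 to 1.51 and KO chimeras from 1.08 through 1.52 to 1.79. Of the KO chimeras, 4 lay above every control, and 3 controls lay below every KO chimera. The means were 1.14 ± 0.34 and 1.48 ± 0.27, and the difference was 0.34 ± 0.14 (SE; limma adjusted p = 0.193), positive on all 5 slides that held both groups. All 9 ependymal markers had positive differences (median 0.43), 1 of them past the threshold (Tekt1, 0.52, limma adjusted p = 0.0455). Their summed linear signal was 12.5 to 32.7 in control and 23.3 to 44.9 in KO chimeras, and each was detected on all 16 arrays. The part of these cells in the Cd24a value was not tested. In bulk tissue, a change in the number of cells of a type and in RNA per cell cannot be told apart.

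Neurod1 and Igfbpl1 had differences of opposite sign. Neurod1, a transcription factor of differentiating neurons, was above background on 7 control and 4 KO chimera arrays at mm9 chr2:79294309-79294368. Control mice ranged from −4.96 through −3.70 to −3.47 and KO chimeras from −4.75 through −4.50 to −3.59, with 1 KO chimera above the control median. The means were −3.93 ± 0.52 and −4.36 ± 0.40, and the difference was −0.43 ± 0.22 (SE; limma adjusted p = 0.269). Its second probe differed by −0.73 (adjusted p = 0.0874 in limma with each probe tested). At the first probe the difference was −0.03 with normexp background correction and −0.66 in the log2 table the authors deposited. Dim probes as a whole differed in the other direction, and the part of background in the Neurod1 values was not tested.

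Igfbpl1, a secreted protein gene of newly formed neurons, ranged at mm9 chr4:45822379-45822438 from −3.96 through −3.02 to −2.40 in control mice and from −3.01 through −2.88 to −2.04 in KO chimeras. All 8 KO chimeras lay above the control median and 4 controls lay below every KO chimera. The means were −3.16 ± 0.58 and −2.80 ± 0.32, with a difference of 0.36 ± 0.22 (SE; limma adjusted p = 0.361). The other 4 genes of the class had these differences: the tubulin gene Tubb2b by 0.08, Sox4 by 0.02, and the interneuron transcription factors Dlx1 and Dlx2 by 0.11 and −0.19. Dlx1 and Dlx2 are also made by mature hypothalamic neurons of the inhibitory kind. Dimmer Sox4 probes gave 0.17 and 0.36.

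The contrast between proliferation and immature neuron genes was small, and its sign depended on the animals included. The median difference was 0.12 over the 15 cell cycle genes tested and 0.08 over the 9 immature neuron genes, 0.04 apart, with no test. Leaving out each animal in turn gave 0.054 (without control replicate 8) to 0.175 (without KO chimera replicate 3) for the cell cycle median. The immature neuron median then ran from 0.045 (without control replicate 7) to 0.114 (without control replicate 1). The contrast ran from −0.026 (without KO chimera replicate 4) to 0.107 (without KO chimera replicate 3), so its sign turned. For single arrays, the cell cycle mean minus the immature neuron mean of values centred per gene had an SD of 0.16 within groups. That is a spread of single animals and not the error of the contrast of medians. The contrast was 0.09 within the first scan day and −0.12 within the second. By class, the mean of values centred per gene over the G2 and mitosis genes ran from −0.49 to 0.19 in control and from −0.15 to 0.35 in KO chimeras. For S phase genes it ran from −0.07 to 0.17 and from −0.10 to 0.13, and for immature neuron genes from −0.27 to 0.20 and from −0.07 to 0.13. All 3 pairs of ranges overlapped.

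Wider lists of the same pathways were called at about the rate of all genes: 4 of 99 genes tested over 6 lists, or 4.04%, against 3.83%. Of 22 other S phase genes, 20 were tested, with a median difference of −0.03, and 1 was lower. This was Cdt1, which licenses replication origins, at −0.29 ± 0.06 (SE; limma adjusted p = 0.0211). Its values were −0.38 ± 0.12 in control and −0.66 ± 0.09 in KO chimeras. Of 28 other G2 and mitosis genes, 18 were tested (median 0.05), and 1 was lower: Anln, an actin-binding protein of the cleavage furrow, at −0.52 ± 0.13 (SE; limma adjusted p = 0.0393). Anln is also made by myelinating oligodendrocytes, and of 12 oligodendrocyte markers 4 were lower (median −0.29), among them Mal at −0.66. The part of these cells in the Anln value was not tested. Of 15 cell cycle inhibitor genes 14 were tested, with a median of −0.07 and none past the threshold, and of 6 G1 kinases and other G1 cyclins 5 were tested (median 0.03), again with none.

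Of 24 other immature neuron genes 22 were tested (median −0.10) and 1 was lower, Nrep, a gene of growing axons, at −0.44 ± 0.11 (SE; limma adjusted p = 0.0334). Of 20 other progenitor and glial stem cell genes all were tested (median −0.02) and 1 was higher, Fabp7, a fatty acid binding protein of radial glia, at 0.34 ± 0.09 (SE; limma adjusted p = 0.0424). Fabp7 was 2.80 ± 0.20 in control and 3.14 ± 0.15 in KO chimeras, and it is also made by astrocytes of the adult brain.

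Some markers of other cells and regions passed the threshold, as 3.83% of all genes tested did, while several lists had none past it. Of 12 oligodendrocyte precursor markers, which label the most common dividing cell of the adult brain, 1 was lower (Bcas1, −0.41) and the median was −0.05. Of 12 microglial markers 11 had negative differences (median −0.21) and Trem2 was lower, at −0.43. Of 9 astrocyte markers 1 was lower (Fgfr3, −0.34; median −0.15), and of 6 red blood cell genes tested 1 was lower (Hbb-b2, −0.58; median −0.29). Endothelial and mural, choroid plexus, lymphocyte and neutrophil lists had medians of 0.05, −0.09, −0.02 and −0.10, with none past the threshold. All 12 thalamic markers were negative (median −0.72; summed linear signal 52.4 to 157 in control and 36.1 to 82.2 in KO chimeras), and 2 passed. Hypothalamic neuron markers, 11 of 12 tested, had a median of 0.14 with none past the threshold. Cortical Neurod6 was above background on 6 arrays, and the pituitary genes Tshb, Fshb and Pitx1 on 1 each. The lymphocyte genes Cd3d and Ms4a1 were above background on none. The part of these cells and regions in the member differences was not tested.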

How the data were processed

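Cy3-labelled total RNA of hypothalamus was hybridised to 1-colour Agilent arrays, 1 animal per array. The authors deposited the intensity of each spot, which per the file headers had its background subtracted by the scanner's software. The submitters' processing notes name that software as Agilent Feature Extraction 10.7. A second deposited file holds log2 values, with a normalization not given in the sources used here. Against the scanner's log2 values it had an r of at least 0.9996 and a slope of 0.973 to 1.02 on each array, medians per array of 5.21 to 5.26, and 22.3% of its values at a floor of 2.2. Its scale is thus log2 without gene centring, and how the arrays were aligned stays unknown.

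Control spots and those with an outlier mark were removed. The 75th percentile of the array's non-control spots was subtracted from log2 intensity, and repeated spots of a probe were averaged. A probe was kept if well above background on 8 or more of 16 arrays with at least 4 unmarked values per group. Each gene was represented by its probe with the highest mean. Names came from the RefSeq accession for 28026 probes, a current symbol for 3418 and an older symbol for 295, while 23942 kept the name in the files. Probe positions are in mm9, as in the files, and the place of a probe within its gene was not analysed here. The groups follow the source names. They were compared in limma 3.58.1 under R 4.3.3, using lmFit, eBayes and Benjamini-Hochberg adjustment over all genes tested. Single members also had an exact permutation test, which enumerated every assignment of the 16 mice. Correlations with Mki67 were permuted within groups. The number of arrays limits the precision, and p-values rest on the spread among these mice.

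The members and all gene lists were chosen with earlier results of these data known, so no list has a test. Every member is named. Described in full are Mki67, Top2a, Dcx, Sox11 and Nes, and the 4 cell cycle members and 4 immature neuron or progenitor members with the smallest p, a gene named by both parts counting under both. Of other lists, genes past the threshold with the smallest p are named. Some results are not reported here. There were 6 slides, and 5 held both groups. Each of the 2 scan days had 4 controls and 4 KO chimeras. Slide 4 held KO chimera replicate 1 and control replicate 8 only, and slide 5 held KO chimera replicate 7 and control replicate 5 only. The procedure was tested on simulated data: this comparison was imitated for 24363 genes. It called 65.7% of 67 genes made to differ by 0.5 (log2), 85.1% of 67 that differed by 1 and 98.5% of 66 that differed by 2. The plots were made in matplotlib 3.10.9 (Python 3.11.15).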

Additional observations from a re-analysis of the deposited data

Results flagged for a closer look

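In 4 of the 54 groups of 8 values checked (27 members in each group of mice), a single animal lay apart from the rest, its gap to the nearest animal exceeding the share of the group's range that Dixon's test allows. Chance flags about 1 in 20 such groups. Plk1 in control replicate 5 was −2.99, and the nearest control was −2.55. Sox2 in control replicate 7 was 0.908, and the nearest control was 1.15. Dlx2 in KO chimera replicate 1, the array with the fewest spots above background, was 0.193, and the nearest KO chimera was 0.616. Igfbpl1 in KO chimera replicate 4, the only animal on slide 2, was −2.04, and the nearest KO chimera was −2.79. The differences of these 4 genes did not pass the threshold with all animals.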

How the results depend on the processing

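Across 38 alternative settings the 27 members gave 992 differences, of which 2 passed the adjusted p of 0.05 (Pcna and Mcm3 with the array median), and 15 members kept their sign in every setting that gave a value. The number of genes called, 933 in all, was 271 with normexp, 174 with normexp and without KO chimera replicate 1, 527 with quantile normalization, 530 with cyclic loess, 4168 with the array median, 535 in the deposited table, 598 with no filter on dim probes, 488 with slide as a block and 2039 at an adjusted p under 0.1. With the first scan day alone 0 genes passed in limma, and with the second 7; unadjusted p-values under 0.05 numbered 2837 and 3434. Leaving out each animal gave 364 to 1030 genes, with over 1.5-fold fewer without KO chimera replicates 2, 4, 6 or 7 (443, 617, 403 and 617) or control replicates 1, 5 or 7 (542, 364 and 390). Members called were 2 with the array median and 1 (Mki67) at an adjusted p under 0.1, and 0 without any single animal. The cell cycle median, 0.12, was 0.015 with quantile normalization, −0.0051 with the array median and 0.0090 in the deposited table. The progenitor median, 0.11, was −0.012 with the array median and 0.071 to 0.144 without each animal in turn, lowest without control replicate 7. The immature neuron median, 0.08, was −0.045 with the array median and −0.012 within the first scan day. The cell cycle minus immature neuron contrast, 0.04, was −0.118 in the deposited table and −0.118 within the second scan day. It was −0.116 with quantile normalization, −0.084 with cyclic loess, −0.022 with array weights and −0.014 without slide 4. With probes above background on all 16 arrays it was −0.011, and with normexp and without KO chimera replicate 1 it was −0.005. Apart from fits leaving out 1 animal, the other settings gave positive values. The cause of these shifts was not tested. Normexp without KO chimera replicate 1, cyclic loess and the fit without slide 4 were chosen after seeing the data. The replicate numbers did not pair the animals (same-numbered animals correlated at −0.07 to 0.24, 3 of 8 pairs over 0.1). With a replicate block 812 genes and 0 members were called. Signal over background limits Top2a, Ccnb1, Bub1 and Aurkb, which lay under the filter.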
